A study of Mus musculus with 8 samples.

Results

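Transcripts of the unfolded protein response and of protein folding in the endoplasmic reticulum (ER) were compared in CD8+ T cells of C57BL/6 mice that have or lack ASC, an inflammasome adaptor whose gene is Pycard. The group of genes was chosen by function: ER chaperones, disulfide isomerases, stress sensors and their transcription factors, targets of the PERK and ATF4 branch, genes of ER-associated degradation (ERAD), translocon subunits and Mzb1. The choice, that of Mzb1 included, was made with earlier results of these data known. Of 35 listed genes, 32 had a probe named for them in the platform annotation, and 26 could be tested. These 26 genes were read by 33 of the 11270 tested probes, out of 25697 probes on the array. The wild type group held 4 samples, labelled wild type, and the knockout group held 4 samples, labelled as lacking ASC, with 1 single-colour Illumina MouseRef-8 v2.0 bead array each. The labels give the same strain for all 8 samples. The sources used here do not give the tissue the cells came from, the age of the mice, the way the knockout was made, any stimulation, or whether replicates came from separate animals. The p-values therefore cover only how far these samples differ from each other, part of which may be technical.

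The ER folds proteins that enter the secretory pathway. When unfolded proteins accumulate, the sensors IRE1 (Ern1), PERK (Eif2ak3) and ATF6 signal to the nucleus: IRE1 splices the Xbp1 transcript into the form that encodes an active factor, PERK slows translation and favours ATF4 synthesis, and ATF6 is cut to release a factor. Together they raise chaperones, oxidative folding enzymes and the ERAD machinery that returns misfolded proteins to the cytosol. In T cells the response is known to be engaged by activation, when secretion and protein synthesis grow.

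Mzb1, an ER cochaperone best known from B cells and plasma cells, was the only one of the 26 genes to pass the test, and it was higher in the knockout. Ppp1r15a, Dnajb9 and Herpud1 were also higher on every knockout array than on any wild type array, but did not pass. The chaperone and isomerase genes Hspa5, Hsp90b1, Calr, Pdia3, Pdia4 and P4hb did not pass. The differences of these named genes lay between -0.14 and 0.00 on the log2 scale. Hyou1, Creld2 and Manf lay lower, at -0.18, -0.23 and -0.27, and Dnajc3 higher, at 0.05, and none of them passed. None of the 26 was called lower.

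Many genes of the response are known to carry an ER stress response element in the promoter, made of the blocks CCAAT and CCACG with 9 bases between them. A shorter form has ATTGG and CCACG with 1 base between them. Both were searched on both strands in RefSeq promoters of the GRCm38.p6 build, which span 250 bases before to 50 after the annotated start. Promoters were given for 29 of the 35 genes. The longer element was found in 8 of the 29 (27.6%), and in 0.119% of all 32851 mouse promoters of this length. It sits in the genes of 3 ER chaperones or cochaperones, both lectin chaperones, an isomerase, Creld2 and the ERAD ligase Syvn1. The matches are shown since they mark the chaperone and folding genes whose arrays are described next, with both blocks in capitals and each read 5′ to 3′ on the strand that carries it.
Hspa5: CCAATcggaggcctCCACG
Hsp90b1, far match: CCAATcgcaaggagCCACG
Hsp90b1, near match: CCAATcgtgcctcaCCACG
Dnajc3: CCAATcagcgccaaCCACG
Calr: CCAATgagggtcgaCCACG
Canx: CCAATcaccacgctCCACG
Pdia6: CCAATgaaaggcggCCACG
Creld2: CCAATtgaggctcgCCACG
Syvn1: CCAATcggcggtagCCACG
In Hspa5, the gene of the abundant chaperone BiP, the element occupied bases -65 to -47 from the start. The Calr, Creld2 and near Hsp90b1 matches lie on the strand opposite to the gene, and the others on the strand of the gene.

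The shorter form was found in Herpud1 and in no other of the 29, against 0.0365% of all promoters. Herpud1 encodes an ER membrane protein of the ERAD machinery and is a target of both the ATF6 and the ATF4 branch. Its promoter also holds 1 match to the C/EBP-ATF response element TGATGNAA, at bases -112 to -105 on the opposite strand. That element was in 4 of the 29 promoters (13.8%), those of Trib3, Asns, Chac1 and Herpud1, and in 3.97% of all. The XBP1-type element TGACGTGG was in 0 of the 29, and in 0.676% of all. The Herpud1 promoter is shown because Herpud1 is the ERAD gene whose groups were separate, and the Hspa5 promoter beside it because the groups overlapped for Hspa5. This pair was picked by its array values, and other genes run otherwise. Groups were also separate for Dnajb9 and Ppp1r15a, which hold no match, and they overlapped for Asns, which holds a C/EBP-ATF element. A link between element and difference was not tested. Herpud1 lies on the plus strand at chr8:94386179-94386478 and Hspa5 on the plus strand at chr2:34771840-34772139, with the matched elements in capitals.
Herpud1 promoter: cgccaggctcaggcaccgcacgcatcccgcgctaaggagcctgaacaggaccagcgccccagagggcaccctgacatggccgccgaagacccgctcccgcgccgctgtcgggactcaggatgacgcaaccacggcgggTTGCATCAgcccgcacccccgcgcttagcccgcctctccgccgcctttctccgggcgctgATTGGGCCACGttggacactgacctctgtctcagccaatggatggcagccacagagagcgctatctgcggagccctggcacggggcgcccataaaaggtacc
Hspa5 promoter: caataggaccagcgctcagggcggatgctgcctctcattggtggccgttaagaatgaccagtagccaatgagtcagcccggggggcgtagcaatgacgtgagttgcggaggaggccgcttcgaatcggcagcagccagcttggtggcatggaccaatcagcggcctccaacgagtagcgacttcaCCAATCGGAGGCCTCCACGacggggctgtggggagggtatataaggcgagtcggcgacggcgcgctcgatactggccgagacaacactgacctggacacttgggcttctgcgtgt
A match says that these letters are present, not that a factor binds there, and the window leaves out more distant elements. Only exact matches were counted, so near matches with a changed letter were left out.

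**Figure D1:**
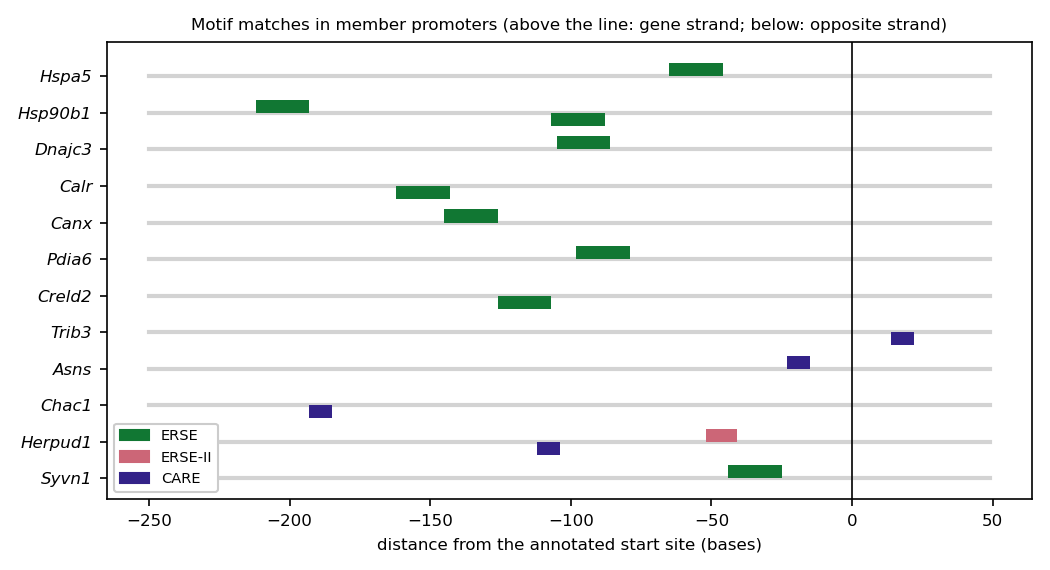
Positions of the 3 kinds of element in the promoters that hold one, by distance in bases from the annotated start (vertical line). Boxes above a gene's line are on the strand of the gene and boxes below on the opposite strand, and in Herpud1 alone 2 kinds of element stand together.

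Median probe signal lay between 127.9 and 133.8 on the 8 arrays, and 42.8% to 45.4% of probes were detected. Pycard was detected on all 4 wild type arrays, at signals of 480.5 to 523.8, and on none of the knockout arrays, at 118.6 to 123.9 (limma adjusted p = 1.15e-09). The T cell genes Cd8b1 and Cd3e were bright on all arrays, with log2 signals of 14.7 to 14.9 (brighter probe) and 13.2 to 13.3. The probe for Cd8a was detected on 0 arrays. Principal component 1, with 28.9% of variance, separated the groups, and component 2, with 15.7%, set wild type replicates 1 and 2 apart from 3 and 4. In such bulk samples, fewer cells of a type and less RNA per cell cannot be told apart.

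Signals below are quantile-normalized and background-corrected log2 values, differences are knockout minus wild type on that scale with their standard error, and n is 4 per group throughout. A probe was tested where its detection p was under 0.05 on at least 4 arrays, and called where limma's p, adjusted over all tested probes, was under 0.05. Of all tested probes, 0.435% were called higher and 0.408% lower in the knockout. Among the 33 probes of the group, 1 was called higher and 0 lower. With a larger background offset, without background correction or with the authors' value table, 4 genes were called higher, namely Mzb1, Dnajb9, Herpud1 and Ppp1r15a. Calls higher over all 11270 tested probes also rose in these settings, from 49 to 104, 121 and 121 in that order. At an unadjusted p under 0.05, 5 of 33 (15.2%) were higher and 0 lower, where the whole array had 6.62% and 6.39%. Groups did not overlap at 5 of 33 probes (15.2%), all 5 higher in the knockout, against 3.91% of all tested probes higher and 4.21% lower. Those 5 probes belong to 4 genes, since Herpud1 has 2 of them. The median difference of the 33 probes was 0.0038, beside -0.0068 for all tested probes, and 17 lay above 0 and 16 below.

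**Figure D2:**
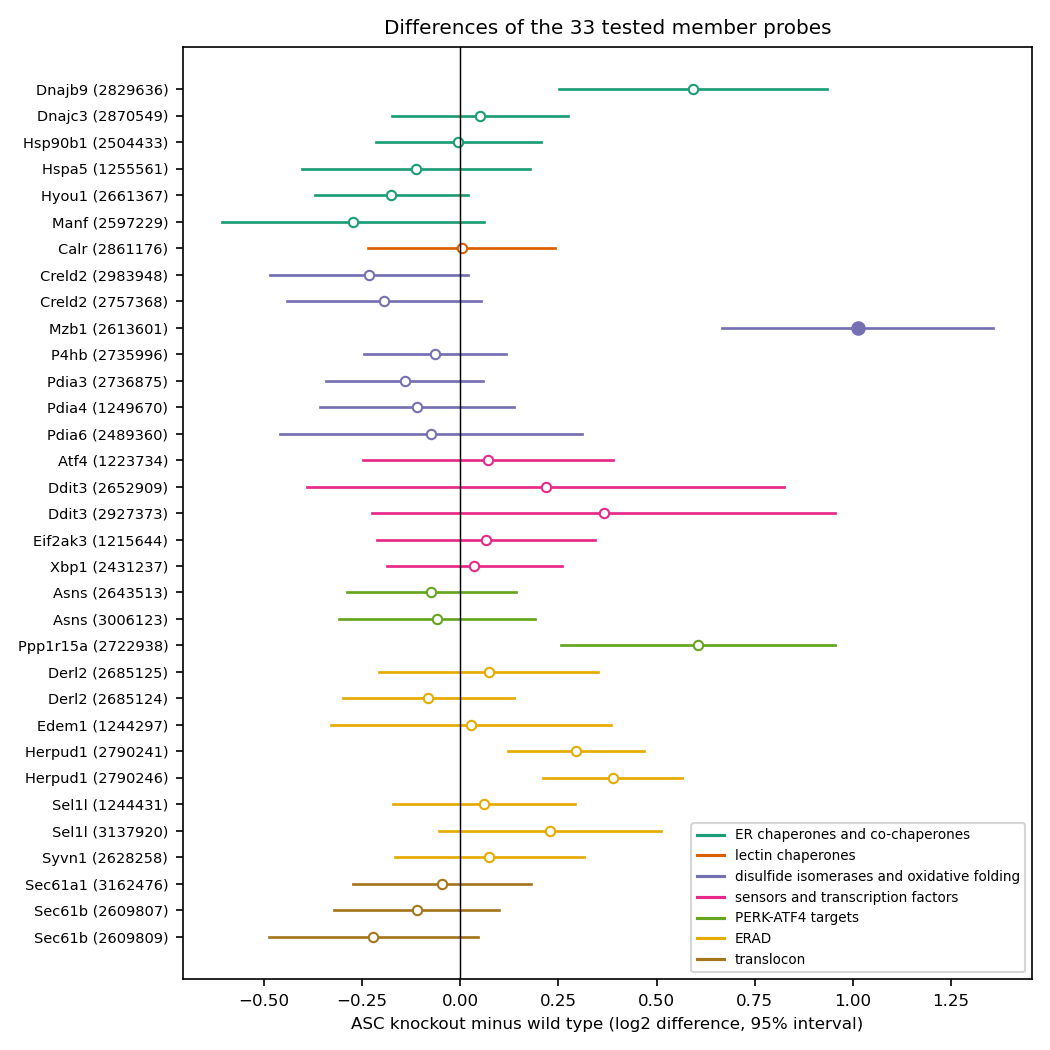
Difference between knockout and wild type at each of the 33 probes (log2, with 95% confidence interval), labelled by gene and probe number and coloured by role. The filled point is Mzb1, which passed the test, and the intervals of Ppp1r15a, Dnajb9 and both Herpud1 probes also lie above 0.

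Among the ER chaperones and cochaperones, Dnajb9 stood apart from the rest. It encodes ERdj4, a BiP cochaperone that is a known target of IRE1 and XBP1. Its log2 signal was 8.27, 8.29, 8.69 and 8.96 in wild type replicates 1 to 4, and 9.03, 9.07, 9.32 and 9.16 in the knockout. All knockout arrays were above all wild type arrays, but only just, since wild type replicates 3 and 4 came closest to the knockout. The difference was 0.59 ± 0.15 (limma adjusted p = 0.12). A second Dnajb9 probe was detected on 0 arrays. Hspa5 encodes BiP, the main ER chaperone and the brake on all 3 sensors. It read 8.28, 8.43, 8.63 and 8.48 in wild type and 7.97, 8.54, 8.40 and 8.45 in the knockout. Knockout replicate 1 was the lowest of the 8, the other knockout arrays lay within the wild type range, and the difference was -0.11 ± 0.13 (limma adjusted p = 0.77).

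Hsp90b1, the gene of the ER chaperone GRP94, had mean log2 signals of 12.47 ± 0.10 (SD) in wild type and 12.46 ± 0.14 in the knockout, a difference of 0.00 ± 0.09. Dnajc3, which encodes the BiP cochaperone p58IPK, had means of 9.32 ± 0.16 and 9.37 ± 0.11, a difference of 0.05 ± 0.10. Hyou1 encodes a large chaperone that exchanges nucleotide on BiP. It read 6.12, 5.99, 6.06 and 5.87 in wild type and 5.90, 5.76, 5.94 and 5.75 in the knockout. The groups overlapped, with a difference of -0.18 ± 0.09 (limma adjusted p = 0.44). Manf, a secreted factor induced by ER stress, read 5.43, 5.30, 5.26 and 5.03 in wild type and 5.28, 4.55, 5.01 and 5.09 in the knockout. Knockout replicate 2 was the lowest, and the difference was -0.27 ± 0.15 (limma adjusted p = 0.49). This was the lowest difference in the group, the groups overlapped, and Manf was the 1 tested probe detected on 7 of 8 arrays, the others being detected on all 8. In all, 2 of the 6 tested chaperone genes lay above 0. The lectin chaperone gene Calr, for calreticulin, had means of 8.27 ± 0.18 (SD) and 8.27 ± 0.11, and differed by 0.00 ± 0.11. Its partner Canx was not tested, as described with the undetected genes.

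Mzb1 (probe ILMN_2613601) had the largest difference in the group. Its log2 signal was 5.88, 5.79, 5.65 and 5.30 in wild type replicates 1 to 4, and 6.45, 6.43, 6.88 and 6.91 in the knockout. The groups did not overlap, and the highest wild type array lay 0.56 below the lowest knockout array. The difference was 1.01 ± 0.16, a fold of 2.02 (limma adjusted p = 0.018). The probe was dim but detected on all 8 arrays, with uncorrected signals of 147.7 to 171.0 in wild type and 182.3 to 223.1 in the knockout. The size therefore depended on the background correction, and was 0.41 without any (limma adjusted p = 0.0053). Mzb1 did not pass without wild type replicate 2 (limma adjusted p = 0.051) or 3 (0.054), or without knockout replicate 3 (0.056) or 4 (0.053).

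Because Mzb1 marks B cells, plasma cells and plasmacytoid dendritic cells, the other markers of those cells were read on the same arrays. Of 15 B and plasma cell genes, 12 had a probe, and Cd79a, Ms4a1, Blk, Fcrla, Igj and Tnfrsf17 were detected on 0 arrays. Sdc1 and Pax5 were each detected on 1 knockout array, at 1 probe. The 4 that could be tested were Cd79b, Cd22, Irf4 and Pou2af1, and 0 were called. Cd79b differed by 0.41 ± 0.23 (limma adjusted p = 0.51), with 6.24 to 6.99 in wild type and 6.55 to 7.63 in the knockout. The others differed by -0.26, -0.08 and -0.18 in that order. The summed linear signal of the 4 ranged from 459 to 574 in wild type and from 440 to 598 in the knockout. Of the 8 plasmacytoid dendritic cell genes, 4 were tested (Siglech, Bst2, Tcf4 and Irf8), all 4 lay below 0 and 0 were called. Their sum ran from 1229 to 1670 in wild type and from 959 to 1236 in the knockout. The part of either cell type in the Mzb1 difference was not tested beyond these values. Of the CD4 and regulatory T cell genes, 7 of 9 were tested and Foxp3 was called, at 1.09 ± 0.14 (limma adjusted p = 0.0058). Of the 7, 5 lay above 0 at the brightest probe. Their 9 probes ran from -0.22 to 1.09, with 2 below 0. Of the 9, 7 were higher and 0 lower at an unadjusted p under 0.05, beside 6.62% and 6.39% of all tested probes. The sum of the 7 genes ran from 4692 to 5148 in wild type and from 6497 to 7811 in the knockout. Those ranges did not overlap, and the part of such cells was not tested. NK cell genes summed to 411 to 520 in wild type and 571 to 854 in the knockout, ranges that did not overlap. Of the 3 tested, 0 were called. At an unadjusted p under 0.05, 4 of their 5 probes were higher, beside 6.62% of all tested probes. The part of NK cells was not tested. Myeloid genes summed to 8082 to 12030 in wild type and 6889 to 9369 in the knockout, with 0 of 9 called. Their 10 probes ran both ways, from -0.55 to 1.08, with 6 above 0 and 4 below. Of the 10, 2 were higher and 1 lower at an unadjusted p under 0.05, beside 6.62% and 6.39% of all tested probes. The 1 tested erythroid gene, Hba-a1, differed by 0.97 ± 0.30 and was not called.

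**Figure D3:**
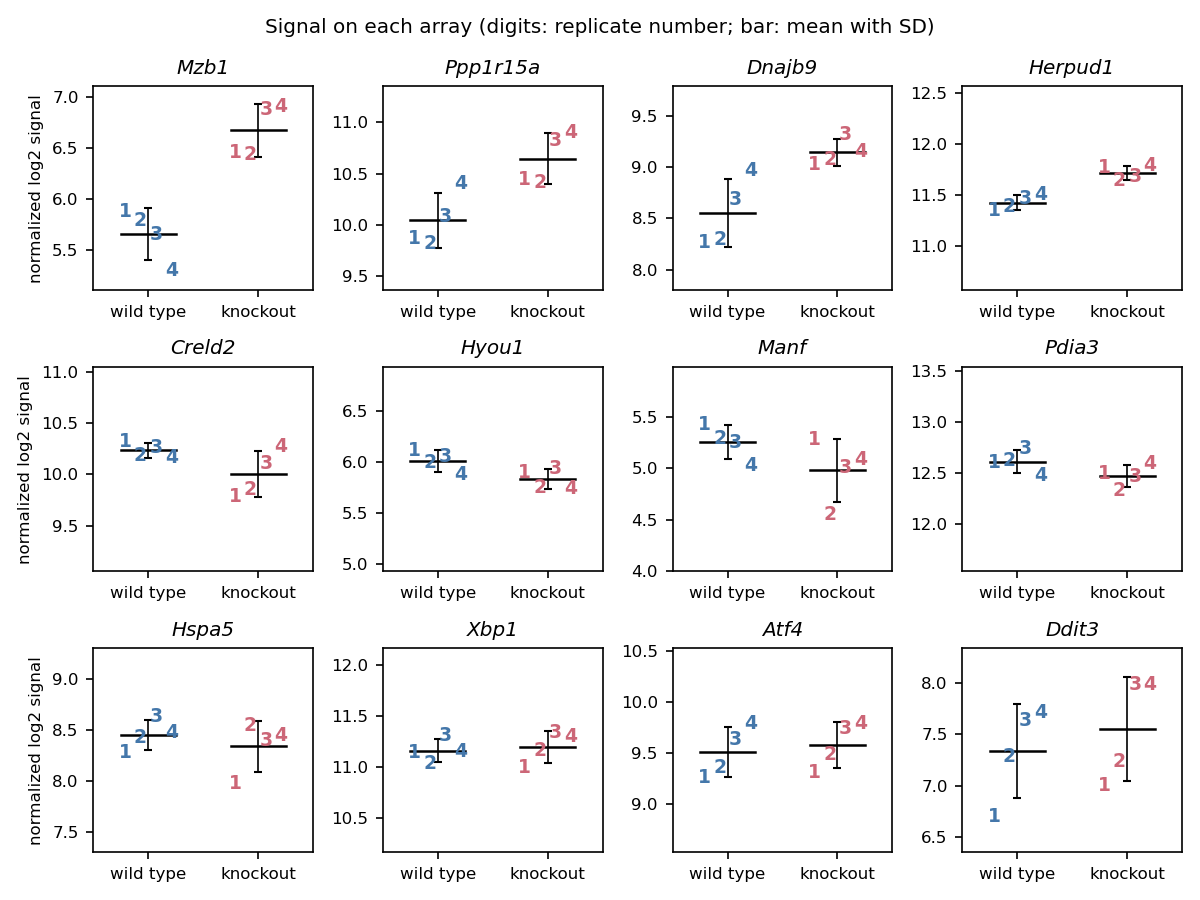
Normalized log2 signal of 12 genes on each array, with wild type on the left and knockout on the right of each panel, digits for the replicate number, and the mean with SD (n = 4). The groups are separate for Mzb1, Ppp1r15a, Dnajb9 and Herpud1 and overlap in the other 8 panels, and each panel has its own axis.

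The disulfide isomerases form and shuffle the disulfide bonds of secreted proteins. Apart from Mzb1, the 5 tested genes of this role lay slightly below 0 and 0 passed. Pdia3, the isomerase that works with calreticulin, read 12.60, 12.63, 12.74 and 12.48 in wild type and 12.49, 12.33, 12.46 and 12.59 in the knockout. The groups overlapped, and the difference was -0.14 ± 0.09 (limma adjusted p = 0.56). Creld2, which encodes a secreted ER stress protein with isomerase activity, read 10.32, 10.18, 10.27 and 10.17 in wild type at its brighter probe and 9.78, 9.85, 10.11 and 10.27 in the knockout. Knockout replicates 1 to 3 were below all wild type arrays and replicate 4 was within the wild type range. The difference was -0.23 ± 0.11 (limma adjusted p = 0.43), and -0.19 ± 0.11 at the other probe. Pdia4 had means of 10.09 ± 0.16 (SD) in wild type and 9.98 ± 0.17 in the knockout, and differed by -0.11 ± 0.11. P4hb, the gene of the founding isomerase PDI, had means of 12.12 ± 0.08 and 12.06 ± 0.08, and differed by -0.06 ± 0.08. Pdia6 had means of 6.13 ± 0.08 and 6.05 ± 0.41, and differed by -0.08 ± 0.17. For Pdia6 the knockout value rests on replicate 1, which read 5.45 where the other knockout arrays read 6.20 to 6.33.

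The 4 tested genes of sensors and transcription factors all lay above 0 at the brightest probe, by 0.04 to 0.22, and 0 were called. Ddit3 was the highest and least precise of them. Xbp1 read 11.14, 11.04, 11.31 and 11.15 in wild type and 10.996, 11.16, 11.34 and 11.30 in the knockout, a difference of 0.04 ± 0.10. The deposited probe values do not separate its spliced form. Atf4, which is controlled largely at translation, read 9.26, 9.36, 9.63 and 9.79 in wild type and 9.31, 9.49, 9.74 and 9.79 in the knockout. The groups covered nearly the same range, and the difference was 0.07 ± 0.14. Eif2ak3 had means of 7.68 ± 0.24 (SD) and 7.75 ± 0.13, and differed by 0.07 ± 0.12. Ddit3 encodes CHOP, the factor of the PERK branch linked to cell death. Its brighter probe read 6.70, 7.29, 7.64 and 7.72 in wild type and 7.004, 7.24, 7.99 and 7.99 in the knockout. Replicates 1 and 2 were low and 3 and 4 high in both groups, and the groups overlapped. The difference was 0.22 ± 0.27 (limma adjusted p = 0.80), and 0.37 ± 0.26 at the other probe (limma adjusted p = 0.62). Its SD within a group, 0.46 in wild type and 0.51 in the knockout, was the largest of the 26 genes.

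Of the targets of PERK and ATF4, Ppp1r15a and Asns were tested. Ppp1r15a encodes GADD34, which brings a phosphatase to eIF2alpha and so restores translation. Its log2 signal was 9.87, 9.81, 10.08 and 10.40 in wild type and 10.45, 10.42, 10.82 and 10.90 in the knockout. The groups did not overlap, although wild type replicate 4 and knockout replicate 2 lay 0.01 apart. The difference was 0.61 ± 0.16 (limma adjusted p = 0.12). Asns, the asparagine synthetase gene that ATF4 induces on amino acid shortage, had means of 10.10 ± 0.08 (SD) and 10.03 ± 0.16 at its brighter probe. It differed by -0.07 ± 0.10 and by -0.06 ± 0.11 at its 2 tested probes. Ppp1r15a was the 1 tested member on chromosome 7, which also carries Pycard, 82.5 Mb away.

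Ppp1r15a is also known as an early response gene of handling and serum stress, so immediate early and heat shock genes were read beside it. Of 14 such genes tested, 12 lay above 0 and 3 were called higher in the knockout: Dusp1 (1.03 ± 0.15), Fosb (1.14 ± 0.20) and Fos (0.65 ± 0.12). Their limma adjusted p-values were 0.015, 0.036 and 0.043. At an unadjusted p under 0.05, 6 of the 14 were higher and 1 lower, beside 6.62% and 6.39% of all tested probes. The lowest difference at any probe of the list was -0.34. The summed linear signal of the 14 ran from 41429 to 48526 in wild type and from 49816 to 56912 in the knockout, without overlap. The heat shock genes among them lay close to 0 or below, with Dnajb1 at 0.04 ± 0.10 and Hsph1 at -0.18 ± 0.13. The part of such a response in the values of Ppp1r15a, Dnajb9 and Herpud1 was not tested.

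In ERAD, Herpud1 was the gene whose groups were separate. Its brighter probe read 11.35, 11.39, 11.47 and 11.51 in wild type and 11.77, 11.64, 11.69 and 11.79 in the knockout. The second probe read 10.94, 10.80, 11.02 and 10.99 against 11.32, 11.27, 11.32 and 11.40. Both probes had every knockout array above every wild type array, and the larger of its group SDs, 0.07 at the brighter probe, was the lowest of the 26 genes. The differences were 0.30 ± 0.08 (limma adjusted p = 0.13) and 0.39 ± 0.08 (limma adjusted p = 0.060). Sel1l and Syvn1 encode the core of the HRD1 ubiquitin ligase. Sel1l had means of 8.49 ± 0.09 (SD) in wild type and 8.55 ± 0.19 in the knockout, a difference of 0.06 ± 0.10 at its brighter probe and 0.23 ± 0.13 at the other. Syvn1 had means of 11.04 ± 0.17 and 11.11 ± 0.14, a difference of 0.07 ± 0.11. Edem1, which selects misfolded glycoproteins, had means of 5.99 ± 0.15 and 6.02 ± 0.35, a difference of 0.03 ± 0.16. The derlin gene Derl2, for a membrane protein of the export channel, had means of 8.83 ± 0.14 and 8.90 ± 0.23. It differed by 0.07 ± 0.13 at the brighter probe and -0.08 ± 0.10 at the other, so its probes differed in sign. All 5 tested ERAD genes lay above 0 at their brightest probe, by 0.03 to 0.30, and 0 were called.

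The translocon is the channel through which new proteins enter the ER. Sec61b, a small subunit, had means of 10.20 ± 0.12 (SD) and 10.09 ± 0.12, and differed by -0.11 ± 0.09 at its brighter probe and by -0.22 ± 0.12 at the other. Sec61a1, the pore subunit, had means of 9.67 ± 0.10 and 9.62 ± 0.17, and differed by -0.05 ± 0.10. The groups overlapped at all 3 probes.

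**Figure D4:**
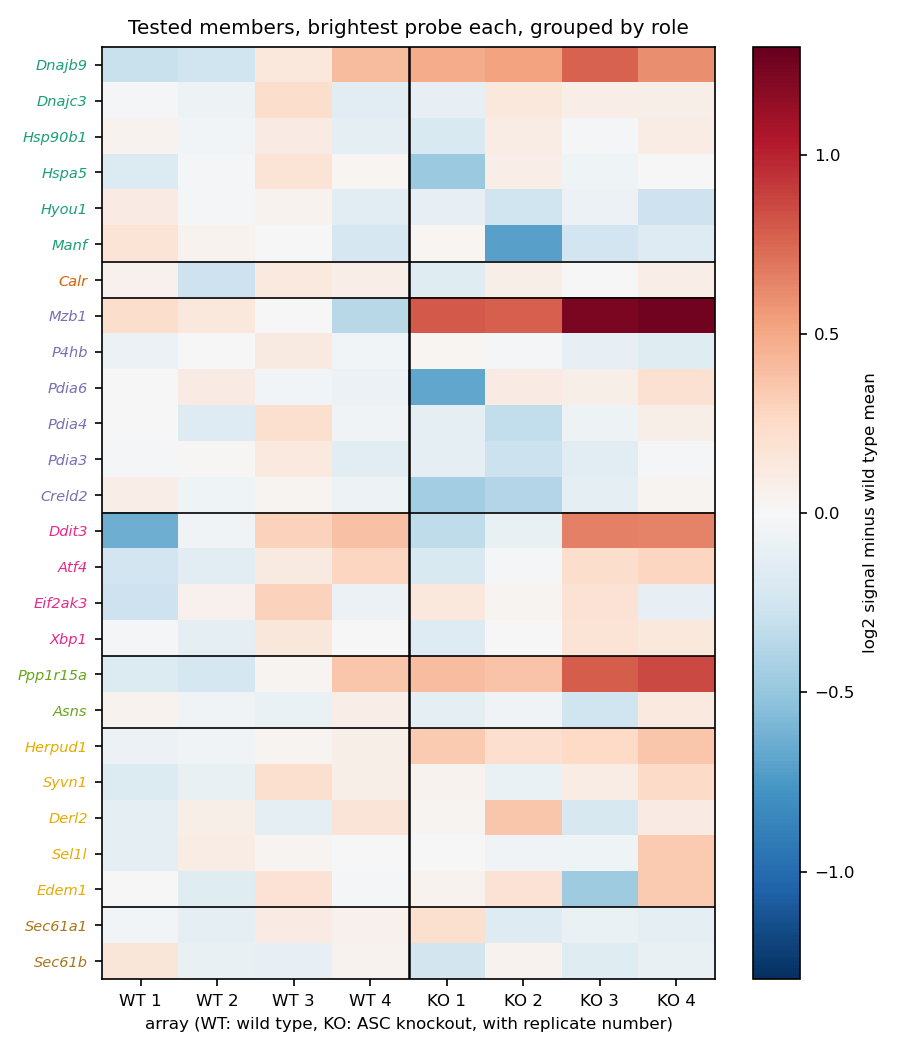
Log2 signal of the 26 tested genes on each array minus the wild type mean of the gene, at the brightest probe, grouped by role. Dnajb9, Mzb1, Ppp1r15a and, more lightly, Herpud1 are red on all 4 knockout arrays, while most other genes stay pale. Single dark cells mark knockout replicate 1 for Pdia6 and replicate 2 for Manf, and Ddit3 varies between arrays within both groups.

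The confidence intervals give how precisely the differences were measured, given the spread among these samples. Since separate animals are not stated, the intervals may leave out differences between mice. They also do not cover the choice of background correction. The 95% confidence interval of the difference lay within 0.5 log2 units of 0 for 25 of the 33 probes (75.8%), near the 77.3% of all tested probes. It lay within 1 log2 unit for 32 of 33, the exception being Mzb1. For Hspa5 the interval was -0.40 to 0.18, for Hsp90b1 -0.22 to 0.21, for Xbp1 -0.19 to 0.26 and for Atf4 -0.25 to 0.39. For Ddit3 it was wider, -0.39 to 0.83. Of the 26 genes, 14 differed by less than 0.1 at the brightest probe. A group SD above 0.3 was found in 5 genes, namely Dnajb9, Manf, Pdia6, Ddit3 and Edem1, and the median SD over genes was 0.144 among wild type and 0.165 among knockout arrays.

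The promoter elements can be set beside these values. The 7 tested genes with the longer element, all of those printed above except Canx, differed by -0.23 to 0.07, with a median of -0.0046. The 15 tested genes with a promoter and without an exact match to that element ran from -0.14 to 0.61, with a median of 0.060. Herpud1, Dnajb9 and Ppp1r15a are all among these 15. Of these, Herpud1 carries the shorter form and a C/EBP-ATF element, while Dnajb9 and Ppp1r15a hold none of the elements searched. The median standard error of a gene's difference was 0.11, beside which the 2 medians lie close together. Whether the element goes with the differences was not tested. Mzb1 had no promoter in the table.

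Genes with a named probe that could not be tested numbered 6, namely Canx, Ern1, Trib3, Chac1, Derl1 and Ssr1. Their 8 probes had signals of 110.2 to 137.5, close to the array median. Trib3, a pseudokinase gene induced by ATF4 and CHOP, was detected on 1 knockout array and 0 wild type arrays. The other 5 genes were not detected on any array, so their levels in either group are not known from these probes. Canx is abundant in most cells, and its probe gives no level here. Another 5 probes of tested genes (Dnajb9, Asns, Sel1l, Edem1 and Derl2) also missed the filter. Sdf2l1, Ero1l and Atf6 had no named probe and were not analysed here.

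The wider pathway was read from 6 further lists holding 115 tested genes and 154 probes. Of these, 0 probes were called in either direction, while at an unadjusted p under 0.05, 11 were higher (7.14%) and 6 lower (3.90%), where the whole array had 6.62% and 6.39%. Their median difference was 0.013. Groups did not overlap at 11 probes higher (7.14%) and 3 lower (1.95%) in the knockout, beside 3.91% and 4.21% of all tested probes. Among 18 other ERAD genes, Ube2j1, an ER ubiquitin-conjugating enzyme, had the smallest p: it read 7.14, 6.96, 6.95 and 6.91 in wild type and 7.26, 7.71, 7.59 and 7.20 in the knockout. The groups did not overlap, with a difference of 0.45 ± 0.12 (limma adjusted p = 0.14). Among 27 other genes of translocation, signal peptide cleavage and glycosylation, 4 were higher at an unadjusted p under 0.05. They were Serp1 (0.32 ± 0.09), which stabilises membrane proteins under ER stress, the signal peptidase subunit gene Spcs3 (0.25 ± 0.08), the signal recognition particle gene Srp9 (0.18 ± 0.07) and Ssr3 (0.16 ± 0.07). Their limma adjusted p-values ran from 0.16 to 0.38. The 19 other folding and oxidation genes had 0 at that level in either direction, with a median of -0.05, and the smallest p was that of the peroxiredoxin gene Prdx4 (0.22 ± 0.10, limma adjusted p = 0.41).

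The ATF4 and amino acid response list ran both ways. Of its 17 tested genes, Ddit4, an inhibitor of mTORC1 that ATF4 and glucocorticoids induce, differed by 0.55 ± 0.14 (limma adjusted p = 0.12). The amino acid transporter subunit gene Slc3a2 differed by 0.34 ± 0.15. On the other side, Phgdh, the first enzyme of serine synthesis, read 8.92 to 9.02 in wild type and 8.47 to 8.80 in the knockout. The groups did not overlap, and the difference was -0.32 ± 0.09 (limma adjusted p = 0.15). The mitochondrial one-carbon enzyme genes Mthfd2 and Shmt2 differed by -0.33 ± 0.11 and -0.20 ± 0.08. The tryptophanyl tRNA synthetase gene Wars, which interferon also induces, differed by -0.33 ± 0.09 at its brightest probe (limma adjusted p = 0.16) and was below 0 at an unadjusted p under 0.05 at 3 probes. Of 13 other regulators of the response, Traf2, an adaptor that binds activated IRE1, differed by 0.41 ± 0.10 (limma adjusted p = 0.11) and Creb3l2, an ER-bound factor related to ATF6, by 0.45 ± 0.16 (limma adjusted p = 0.27). Of 21 ER to Golgi transport genes, the coat gene Sec24d differed by 0.38 ± 0.11 and the cargo receptor gene Tmed10 by 0.19 ± 0.07, and neither was called.

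**Figure D5:**
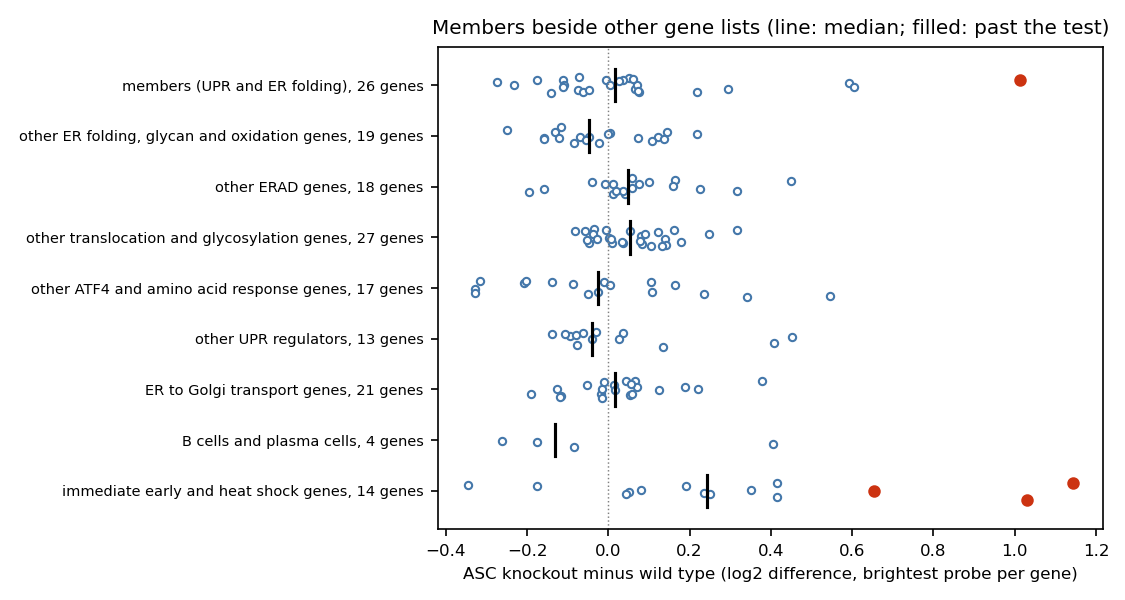
Difference between knockout and wild type for each tested gene at its brightest probe (log2), for the 26 genes described here, 6 lists of related genes and 2 lists of other markers, with a line at each median. Filled points passed the test: Mzb1 in the first row and 3 immediate early genes in the last.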

How the data were processed

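RNA of CD8+ T cells from 4 wild type and 4 ASC knockout samples was column-purified, freed of DNA and turned into biotinylated cRNA, per the labels' protocols. The submitters' processing notes name GenomeStudio, without a version. Per the file headers, the deposited intensities are not normalized, and the lowest was 101.1, so no background had been subtracted. A deposited detection p-value stood beside each intensity. The authors' deposited value table holds log2 values, whose scale no header states. Its values matched, within 0.00059, uncorrected signals after quantile normalization and log2, with the probe's own median taken off. Its column medians ran from -0.00045 to 0.00053, its direction follows the signal, and it has no absolute level.

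From the intensities, background was corrected with limma's nec (offset 16, parameters inferred from the detection p-values), followed by quantile normalization and log2. A probe entered the fit when 4 or more of 8 arrays had a detection p-value below 0.05. The fit used lmFit and eBayes (limma 3.58.1 in R 4.3.3), with Benjamini-Hochberg adjustment over the 11270 tested probes. The code was tested on simulated data. Genes were named from the platform annotation, and of several probes the brightest stands for a gene where lists are counted. The number of arrays limits the precision.

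Genes, related lists and markers were chosen with earlier results of these data known. Array values are given for genes called, the 8 with the smallest p, the 4 with the largest difference in each direction, and Hspa5, Xbp1, Atf4, Ddit3 and Mzb1 whatever their result. Of each related list the rule named called genes and the gene of smallest p, and further related genes were chosen after their values were seen, by an unadjusted p under 0.05. Replicate numbers are shared between groups, and the sources used here do not say whether they pair the samples. The correlations of same-numbered samples' deviations were 0.0139, 0.107, 0.132 and -0.0999, so the main fit took the samples as unpaired. Such correlations over all tested probes cannot exclude pairing, and the fit with the replicate number as a block is given below. The sources used here give no slides or scan dates, so no batch was tested. Alternatives changed the background model, normalization, filter, source table, array weights, variance model and replicates.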

Additional observations from a re-analysis of the deposited data

Results flagged for a closer look

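In 52 comparisons of 1 array with the other 3 of its group, 1 for each of 26 genes in each group, 2 had an array far from the others. About 1 in 20 is flagged by chance, or 2.6 of 52. Pdia6 read 5.45 on knockout replicate 1 and 6.20 to 6.33 on the other knockout arrays, a gap of 0.862 of the group's range, above Dixon's 95% critical value for 4 samples. Without that array the difference of Pdia6 turned from -0.08 to 0.13. Sel1l (probe ILMN_1244431) read 8.82 on knockout replicate 4 and 8.43 to 8.49 on the others, a gap of 0.864 of the range. Without that array its difference turned from 0.06 to -0.03. Neither gene passed the test with or without the array.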

How the results depend on the processing

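Over 19 alternatives, 0 of the 26 genes were called lower in the knockout. The count called higher was 1 in the main setting, 4 with a nec offset of 50, 4 without background correction and 4 with the authors' value table (Dnajb9, Herpud1, Mzb1 and Ppp1r15a each time). It was 3 with a trended and robust variance model (without Ppp1r15a), and 2 with probes detected on all 8 arrays or with array weights (Herpud1 and Mzb1). Leaving out single replicates gave 0 to 2, with 0 without wild type replicate 2 or 3 or without knockout replicate 3 or 4. With the replicate number as a block the count was 1, but the gene was Ppp1r15a (limma adjusted p = 0.041) and Mzb1 did not pass (limma adjusted p = 0.077). Calls higher over all tested probes numbered 49 in the main setting. They were 104 with the offset of 50, and 121 without background correction or with the authors' value table. The trended and robust model gave 126, probes detected on all 8 arrays 55 of 9775, and array weights 60. Leaving out single replicates gave 15 to 41 such calls, and the replicate block 29. Median scaling over all probes moved the median of the 33 probes to -0.085 and that of all probes to -0.083. Mzb1 passed in 14 of 19 alternatives, with adjusted p-values of 0.00098 to 0.077. Dnajb9 passed in 5 (0.031 to 0.29), Ppp1r15a in 4 (0.029 to 0.29) and the second Herpud1 probe in 6 of 18 (0.0034 to 0.18). Of the 33 probes, 20 kept their sign in all alternatives, and the 13 others differed by at most 0.11 in the main setting. Dim probes such as that of Mzb1 limit the size of a fold, since it depends on the background correction.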
